A study of Mus musculus with 6 samples.

Results

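The transcripts described here are the predicted coding transcripts of mouse sperm and testes, that is, transcript models which the authors of the study built from their own reads and sorted as protein-coding. They were found by their identifiers, which start with MTCONS, and a transcript missing from a sample's table was taken as 0. There were 1757 of them among the 70439 transcripts in the 6 tables, under 1469 gene identifiers that all start with MXLOC. The series asked which RNAs mature sperm carry and how they compare with those of testes. It held 4 sperm samples and 2 testes samples of C57BL/6 mice, aged 3 to 5 months by the labels, and the labels name no treatment or mutation. The study's methods give the substrain as C57BL/6J and state the age in weeks, with a range that only partly overlaps that of the labels. Mature sperm came from the vas deferens and caudal epididymis, were freed of somatic cells and were pooled over mice, and the testes samples were pools of whole testes from these animals. Ribosomal RNA was depleted and the libraries were strand-specific and paired-end. The study set sperm replicate 1 aside after its own correlation check, so both testes samples were compared with sperm replicates 2 to 4, and replicate 1 is shown alongside.

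An assembled transcript is a model stitched together from reads that overlap on the genome, and it may hold a whole RNA, a fragment of one or several joined together. Coding potential is then scored from the sequence, chiefly from the length and quality of the open reading frame and its likeness to known proteins, so the class is a prediction about sequence and no protein was measured. Ripening sperm pack their chromatin, stop transcribing and shed most of their cytoplasm, so the RNA of mature sperm is largely left from spermatogenesis. Whole testes hold all stages of spermatogenesis together with the supporting somatic cells. In such bulk samples, fewer cells of a type and less RNA per cell cannot be told apart.

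The total of the estimated counts, which stands for the depth, ran from 366455 to 1058017 in the 4 sperm samples and was 2866856 and 2606086 in testes, so depth and group moved together. Of 10 late spermatid and sperm markers, 4 to 8 were listed in the sperm samples, against 10 and 9 in testes. Protamine 2 (Prm2), which packs sperm DNA, was listed in all 4 sperm samples, and Odf1, an outer dense fibre protein of the tail, in none. The 10 markers summed to 121, 309, 142 and 222 counts in sperm replicates 1 to 4 against 1102 and 967 in testes. All 6 earlier germ cell markers were at 0 in sperm, and Kit among them was listed in no testes sample either. Sertoli markers summed to at most 1 count in sperm and leukocyte markers to at most 2. In testes the sums were 27 and 46 counts for earlier germ cells, 14 and 11.4 for Sertoli and at most 13 for leukocyte markers. These testes sums are small and sperm depth was lower, so the low sperm sums cannot show that such RNA was absent. Epididymal markers summed to 4 to 9 counts in sperm against 32 and 48 in testes. Leydig markers, of which Star gave nearly all counts, summed to 0, 17, 40 and 6 counts in sperm replicates 1 to 4 against 187 and 168 in testes. With length and depth divided out, as FPKM, the Leydig sums were 0, 4.31, 27.5 and 2.96 against 22.2 and 20.2. The epididymal sums as FPKM were 5.83, 4.17, 13.0 and 5.77 in sperm replicates 1 to 4. In testes replicate 1 the epididymal sum was 5.96, and testes replicate 2 lay higher but below sperm replicate 3. Sperm replicate 3 thus lay above both testes samples in Leydig and epididymal markers, and the other sperm samples lay below both. The part of these markers in the results was not tested.

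The predicted coding transcripts were shorter than RefSeq mRNA and longer than the lncRNA that the authors predicted from the same reads. Their lengths ran from 203 to 101536 bases with a median of 1643 and quartiles of 892 and 3142. The median length was 2724 bases for the 16425 RefSeq mRNAs and 1158 for the 9268 predicted lncRNAs. At the short end, 143 predicted coding transcripts (8.14%) were under 500 bases, against 0.816% of RefSeq mRNA. At the long end, 52 (2.96%) reached 10000 bases, against 1.72% of RefSeq mRNA. The longest, MTCONS_00081221, was listed in testes replicate 1 alone with an estimated count of 11.1, and the shortest, MTCONS_00149316, had 2 counts in sperm replicate 2, 5.10 in testes replicate 1 and 2.98 in testes replicate 2.

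Most of these loci held a single predicted coding model. Of the 1469 gene identifiers, 1258 had 1 transcript, 159 had 2 and 36 had 3, and the most was 8 (MXLOC_075602). No MXLOC identifier was shared with a RefSeq mRNA or a lncRNA. Predicted lncRNAs such as LTCONS_00103124 stand under LXLOC identifiers, and NONCODE lncRNAs such as NONMMUT112292.1 under NONMMUG ones. The identifiers therefore cannot show whether a locus is shared between classes. The deposited tables hold no positions for these models, and overlap with known genes was not analysed here.

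The estimated counts of these models were often not whole numbers. A fragment that fits several models is divided among them, and the count of each then need not be whole. Of the predicted coding transcripts listed, 39.6% to 50.7% in the 4 sperm samples and 29.8% and 32.4% in testes had a count within 0.005 of a whole number. For listed RefSeq mRNA these shares were 82.2% to 88.2% in sperm and 75.3% and 77.3% in testes. In every sample the counts of predicted coding transcripts were whole less often.

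Some predicted coding transcripts had a double in another class. Of the 779 with at least 10 counts summed over the 6 samples, 68 (8.73%) had a transcript of another class with the same length and, within 0.011 counts, the same estimated count in all 6 samples. For 65 of them the double was a predicted lncRNA, for 7 it was a NONCODE lncRNA (some had both), and for 0 a RefSeq mRNA. Among 7271 RefSeq mRNAs at the same minimum, 2 (0.0275%) had such a double among the lncRNAs. These doubles, noticed in the tables and then counted, are equal estimated counts in a coding and in a non-coding class. Some of their counts were fractions, such as 205.50 for MTCONS_00111224 and 117.33 for MTCONS_00088485 in testes replicate 1. Whether fragments were divided evenly between the paired models was not tested. Whether the paired models share their sequence was not tested.

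The paired models were not confined to low counts. MTCONS_00054694 and the predicted lncRNA LTCONS_00063790, both 2611 bases long, each had 9, 27.26, 0 and 5.67 counts in sperm replicates 1 to 4, with 614.83 and 656.49 in testes. MTCONS_00121313 and LTCONS_00141541, both 4987 bases long, each had 0.03, 695.42, 5.37 and 290.75 counts in sperm and 32.27 and 60.55 in testes. MTCONS_00088485 was matched by the predicted lncRNA LTCONS_00103124 and by the NONCODE lncRNA NONMMUT112292.1, and all of these had 117.33 counts in testes replicate 1 and 123.33 in testes replicate 2. The longest model had a double too, LTCONS_00094660. Of all counts of predicted coding transcripts, the 68 held 4.60%, 8.88%, 4.63% and 8.38% in the sperm samples by number, against 3.70% and 4.34% in testes.

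Far fewer predicted coding transcripts were listed in sperm than in testes. Sperm replicates 1 to 4 listed 283, 715, 203 and 372 of them, and the testes samples 1327 and 1179. Sperm replicate 2, the deepest of the sperm samples, listed the most of them and replicate 3, the shallowest, the fewest. The sperm mean of 430 ± 261 (SD, n = 3) was 0.343 of the testes mean of 1253 ± 105 (SD, n = 2). The groups did not overlap, and the exact two-sided permutation test gave p = 0.2, the smallest that 3 against 2 samples allow when the one-sided p is doubled, as here (0.333 after adjustment over 5 tests). After every sample was thinned to 366438 counts, sperm replicates 2 to 4 listed 502, 201 and 351 on average and testes 758 and 642, and the ratio rose to 0.501. RefSeq mRNA was listed at similar shares of its class, 9.87% to 43.1% over the 4 sperm samples against 11.6% to 40.7% here. In testes 79.3% and 74.7% of RefSeq mRNA were listed, against 75.5% and 67.1% of the predicted coding transcripts.

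These transcripts held a small share of all counts. Sperm replicates 1 to 4 had shares of 1.48%, 1.57%, 1.36% and 1.53%, and testes 2.39% and 1.92%. Wilson 95% intervals, which cover counting error only, were narrow, from 1.32% to 1.40% in sperm replicate 3 and from 2.38% to 2.41% in testes replicate 1. Every sperm share lay below both testes shares. The means were 1.49% ± 0.110 (SD, n = 3) and 2.16% ± 0.334 (SD, n = 2), with p = 0.2 in the exact two-sided permutation test. As a share of the coding counts alone, that is RefSeq mRNA plus predicted coding transcripts, they made up 12.9%, 14.2%, 13.0% and 12.5% in sperm and 17.5% and 13.7% in testes. Here the groups overlapped, since testes replicate 2 lay below sperm replicate 2, and the exact two-sided permutation test gave p = 0.4. Against testes replicate 2 alone the difference from the sperm mean was -0.515 percentage points, and against testes replicate 1 alone it was -4.31.

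**Figure D1:**
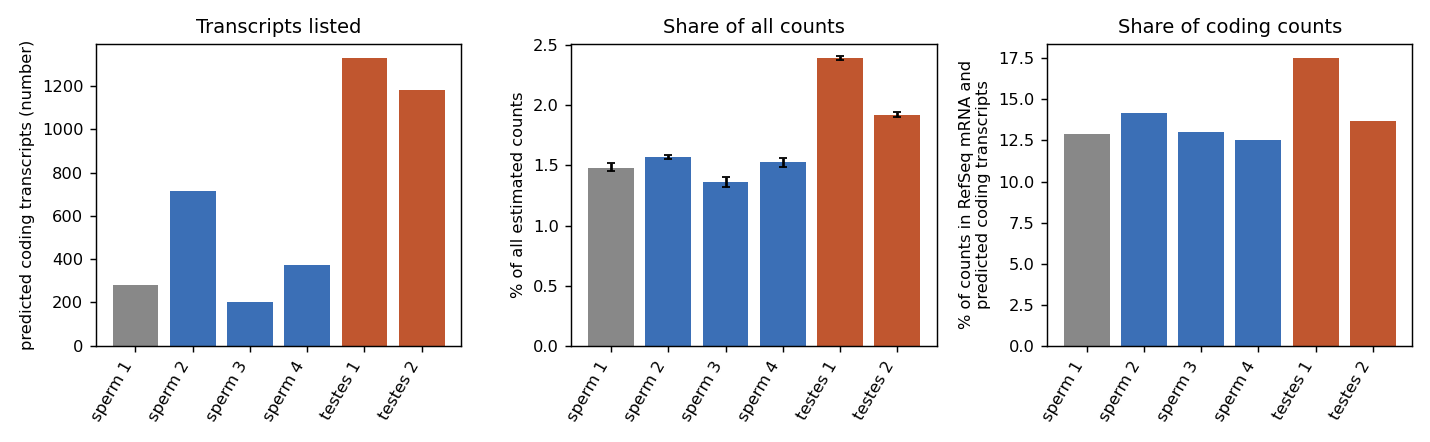
Predicted coding transcripts by sample: the number listed, their share of all estimated counts with Wilson 95% intervals, and their share of the counts in RefSeq mRNA and predicted coding transcripts. Grey marks sperm replicate 1, blue sperm replicates 2 to 4 and orange testes; testes stand above sperm in the first 2 panels, while in the third testes replicate 2 (13.7%) lies below sperm replicate 2 (14.2%).

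The transcripts listed in sperm had a higher median length, and this difference was far smaller once depth was equal. The median length of those listed was 2053, 1915, 2250 and 2038 bases for sperm replicates 1 to 4, against 1743 and 1746 for testes. The difference of the group means was 323 bases (exact two-sided permutation p = 0.2). After thinning to the same number of counts it was 19.1 bases (exact two-sided permutation p = 1.00). Long models were listed more often than short ones in every sample: of the 52 with 10000 bases or more, 30.8% to 50.0% were listed in the sperm samples, against 5.59% to 32.9% of the 143 under 500 bases. Listed RefSeq mRNA also had a higher median length in sperm, at 3048, 2974, 3127 and 3068 bases against 2748 and 2793 in testes.

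Few transcripts were shared by all samples. Only 92 of the 1757 (5.24%) were listed in all 6 samples, 849 in at least 1 sperm sample, 899 in both testes samples, and 685 (39.0%) in 1 sample only. A transcript was counted as kept in sperm when sperm replicates 2, 3 and 4 and both testes samples listed it, and 118 (6.72%) were. The share was 7.05% over all transcripts of the series and 5.92% over RefSeq mRNA, so the count lies near the background. The 118 held 75%, 83.5% and 76.9% of the counts of predicted coding transcripts in sperm replicates 2 to 4, against 50.5% and 55.7% in testes. In sperm replicate 1, which the definition did not use, they held 71.2%. The definition favours transcripts abundant in sperm, so a larger share there follows in part from it. Leaving out a sample loosens the definition, so that the number cannot fall, and without sperm replicate 3 it was 255.

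Whether a transcript was listed in sperm went with its count in testes. Of the 158 with under 5 counts summed over testes, and listed in both samples, sperm replicates 2, 3 and 4 all listed 1.27%. The share was 3.37% of the 297 with 5 to 20 counts, 10.3% of the 273 with 20 to 100, and 45.6% of the 171 with 100 or more. Each of the 4 sperm samples showed this order, replicate 1 going from 9.49% to 63.2%. In the highest class, 155 of the 171 (90.6%) were in at least 1 sperm sample.

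**Figure D2:**
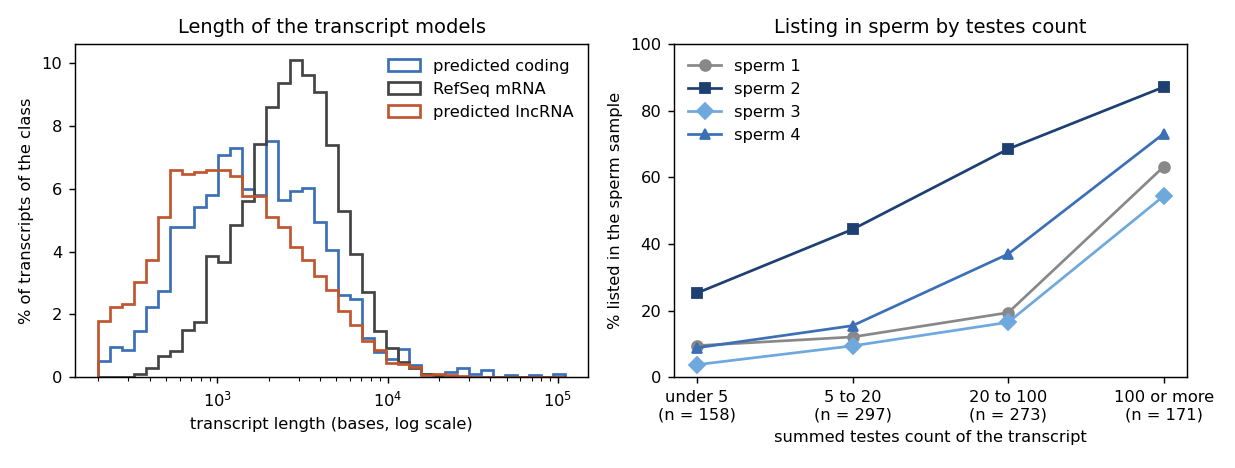
Left, the length of predicted coding transcripts, RefSeq mRNA and predicted lncRNA, as the percentage of each class per bin on a log axis. Right, the percentage of predicted coding transcripts listed in each sperm sample, by their summed testes count, among the 899 listed in both testes samples; every sperm line climbs, to between 54.4% and 87.1% at 100 counts or more.

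Transcripts confined to testes were listed in both testes samples and in none of the 4 sperm samples. There were 340 of them (19.4%), against 20.7% of all transcripts of the series and 24.8% of RefSeq mRNA. The number depended on depth and threshold: 165 met the definition at an FPKM of at least 1 and 132 after thinning. Leaving out 1 sample loosens the definition, so that the number cannot fall, and gave 346 to 684. Most were scarce, with a median of 8.33 counts summed over testes. A count of 0 over the 4 sperm samples still allows a share of 1.27 ppm, taken as 3 counts of their 2357330 in all and covering counting error only, not the spread between sperm samples, and 142 of the 340 were at or below that level in testes. Their absence from sperm was not detectable at this depth. The other 198 (58.2%) lay above it, and 46 by more than 5-fold. Without sperm replicate 2, the deepest, the limit was 2.31 ppm and 134 lay above it.

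The most abundant of the confined transcripts were MTCONS_00017258, MTCONS_00035206, MTCONS_00127451, MTCONS_00037955 and MTCONS_00061735. MTCONS_00017258 had 89.8 and 207 counts in testes replicates 1 and 2, which puts sperm at least 43.5-fold lower. MTCONS_00035206 had 136 and 113 counts (at least 35.6-fold lower) and MTCONS_00127451 had 138 and 87.0 (at least 32.0-fold lower). Of these, MTCONS_00037955 differed most between the testes samples, with 159 and 33.6 counts (at least 26.9-fold lower). MTCONS_00061735 had 82.6 and 95.3 counts (at least 25.7-fold lower). Each of these was 0 in all 4 sperm samples, and the bounds set 3 counts over those samples against the testes mean. Without sperm replicate 2 these bounds fell to between 14.2-fold and 24.0-fold. Against testes replicate 2 alone the bound of MTCONS_00037955 was 10.1-fold, and against testes replicate 1 alone that of MTCONS_00017258 was 24.6-fold. All 5 were called lower by edgeR. They were chosen as 0 in sperm and entered the fit on testes alone, so the calls are no further support. Without sperm replicate 2 the edgeR calls of MTCONS_00127451, MTCONS_00037955 and MTCONS_00061735 were lost, with adjusted p of 0.0505, 0.0710 and 0.0622. The locus of MTCONS_00035206, MXLOC_022064, was not absent from sperm, since its other model MTCONS_00035205 gave it 22.8, 23.7, 7 and 24.1 counts there, against locus sums of 411 and 156 in testes. In edgeR the log2 fold change of the locus was -1.92 (SE 0.84) with an adjusted p of 0.0861. MXLOC_038716, the locus of MTCONS_00061735, had 8.69, 0, 4.50 and 0 counts in sperm, through MTCONS_00061737. Its testes sums were 139.6 and 155 (edgeR log2 fold change -4.62, SE 1.28, adjusted p = 0.00931).

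Transcripts listed only in sperm, in at least 2 of replicates 2 to 4 and in neither testes sample, numbered 20 (1.14%), against 0.981% of all transcripts and 1.07% of RefSeq mRNA. Only MTCONS_00004545 and MTCONS_00102206 were in all 4 sperm samples. MTCONS_00004545 had 76, 133, 37.3 and 93.8 counts in sperm replicates 1 to 4, at least 250.4-fold above what 0 in testes allows. MTCONS_00102206 had 6.28, 19.5, 9.5 and 7.67 counts (at least 36.1-fold higher), and a predicted lncRNA had the same counts and length. The next was MTCONS_00068638 with 8, 8, 0 and 17 counts (at least 24.9-fold higher, and 6.90-fold without sperm replicate 4). Its edgeR call was lost in 6 of 10 alternative fits, with adjusted p up to 0.755, and that of MTCONS_00102206 without either testes sample (0.463 and 0.522) and with the replicate block (0.167). MTCONS_00037956 was seen in replicate 2 (7 counts) and replicate 4 (12), and MTCONS_00032732 in replicate 2 (19.5) and replicate 4 (2.33). The edgeR calls of MTCONS_00037956 and MTCONS_00032732 were each lost in 7 of 10 alternative fits. With a single testes library behind the floor, the bounds were 119-fold and 131-fold for MTCONS_00004545 and 17.2-fold and 18.9-fold for MTCONS_00102206. The others had bounds between 1.68-fold and 14.1-fold. Those of the 20 that entered the fit did so on sperm alone, so their edgeR calls are no further support. Without sperm replicate 2, 3 transcripts met the definition, and without replicate 4, 4 did.

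The transcript with the highest level in sperm was MTCONS_00083201, chosen by its mean FPKM. MTCONS_00083201 (gene identifier MXLOC_051929, 2077 bases) had 1124, 2691, 694 and 1327 counts in sperm, in order of replicate, and 3181 and 2403 in testes. Its FPKM, which divides a count by transcript length and sample depth, was 1299, 1242, 932 and 1276 in sperm and 544 and 453 in testes. Every sperm value lay above both testes values. It ranked between 4th and 6th among all coding transcripts by FPKM in the sperm samples, and 6th and 12th in testes. The edgeR quasi-likelihood test did not call it, with a log2 fold change of 0.95 (SE 0.46) and an adjusted p of 0.131. With library size in place of TMM factors the adjusted p from edgeR was 0.0205, with a log2 fold change of 1.19, and over 12 alternative fits the adjusted p ran from 0.0121 to 0.793. Without this transcript the difference in the share of counts between sperm and testes was -0.805 percentage points in place of -0.672.

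The next transcripts by mean sperm FPKM were MTCONS_00136236, MTCONS_00144688, MTCONS_00032723, MTCONS_00079498, MTCONS_00144686, MTCONS_00003248 and MTCONS_00066939. MTCONS_00136236 and MTCONS_00144688 are described with the calls. MTCONS_00032723 had FPKM of 414, 345, 303 and 406 in sperm and 109.7 and 128 in testes, and MTCONS_00144686 had 175, 254, 195 and 179.5 in sperm and 63.3 and 88.2 in testes. In both the groups were apart, but edgeR gave adjusted p of 0.152 and 0.264, and limma on log2(FPKM + 1) gave 0.0111 and 0.0287. Over the 12 alternative fits the adjusted p ran from 0.00659 to 0.831 for MTCONS_00032723 and from 0.0248 to 0.997 for MTCONS_00144686. MTCONS_00003248 lay between the testes samples, with FPKM of 216, 235, 162 and 215 in sperm and 382 and 144 in testes (edgeR adjusted p = 0.610). The 10 highest transcripts of each sample together held 41.2% ± 1.72 (SD, n = 3) of the class's counts in sperm and 35.3% ± 6.08 (SD, n = 2) in testes (exact two-sided permutation p = 0.4).

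Among all coding transcripts these models were well represented at the top. Between 22 and 28 of the 100 coding transcripts with the highest FPKM in each sperm sample were predicted ones, and 33 and 24 in testes. Of all coding transcripts listed, 9.17% to 11.8% in sperm and 9.24% and 8.77% in testes were predicted.

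In testes the order of the leading transcripts was another. MTCONS_00037136 (808 bases) had the highest FPKM, 915 and 1216, and in sperm it was 0, 7.36, 32.4 and 0. MTCONS_00127450 (2911 bases) had FPKM of 344 and 494 in testes and 21.3, 27.1, 19.0 and 32.2 in sperm. MTCONS_00079498 had 467 and 615 in testes and 168, 179, 266 and 201 in sperm, and so was high in both. In MTCONS_00084734, MTCONS_00127472 and MTCONS_00037071 the mean testes FPKM was 6.03, 3.93 and 3.29 times that of sperm. All these sperm values lay below both testes values. edgeR called each of these lower except MTCONS_00127472 (adjusted p = 0.0565). The calls of MTCONS_00079498 (0.0414) and MTCONS_00037071 (0.0449) were close to the threshold, and both were lost under DESeq2 with adjusted p of 0.0689 and 0.101 (0.00525 to 0.244 and 0.0235 to 0.216 over the alternative fits). The call of MTCONS_00084734 (adjusted p = 0.0133) was also lost under DESeq2 (0.196), under limma with 1 and 0.1 added (0.233 and 0.338) and without sperm replicate 2 (0.0865) or replicate 4 (0.0979).

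The test for a difference between sperm and testes could be made for 658 of the 1757 transcripts, those that reached an FPKM of 1 in at least 2 of the 5 samples. The other 1099 were not tested. At an adjusted p below 0.05 and a fold change above 2, edgeR called 29 of the 658 higher in sperm (4.41%) and 155 lower (23.6%). Over all 25822 transcripts in the fit these shares were 4.48% and 19.3%, and over RefSeq mRNA 4.89% and 22.0%. A transcript could enter on the testes samples alone, as 175 of the 658 did (26.6%, against 23.8% of all transcripts tested), or on sperm alone, as 43 did (6.53%, against 6.22%). Of the calls, 120 of the 155 lower and 17 of the 29 higher entered in that way, so these counts and medians describe the transcripts tested and are no support for a direction. The share called higher was near the background. The median log2 fold change was -1.49 over the 658, -1.30 over all transcripts tested and -1.23 over RefSeq mRNA. With library size in place of TMM factors it was -1.33 over the 658 and -1.12 over all transcripts, and the calls were 32 higher and 54 lower.

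Many calls rested on zeros or had an adjusted p near the threshold. Of the 155 called lower, 108 had 0 counts in sperm replicates 2 to 4, and 101 had an adjusted p of 0.04 or more. Of the 29 called higher, 12 had 0 counts in testes, and 16 had every sperm value above both testes values. Across all 658, the values of sperm replicates 2 to 4 lay above both testes values in 40 (6.08%, against 7.39% over all transcripts and 9.30% over RefSeq mRNA) and below both in 309 (47.0%, against 44.6% and 45.0%). The numbers moved with the method and with single libraries. DESeq2 called 28 higher and 69 lower, and edgeR without sperm replicate 2 called 7 and 15. Leaving out sperm replicate 3, sperm replicate 4, testes replicate 1 or testes replicate 2 gave 47, 12, 10 and 8 higher and 88, 24, 15 and 18 lower. In the fits without a testes sample the spread comes from sperm alone, and the remaining testes sample is assumed to vary like sperm.

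**Figure D3:**
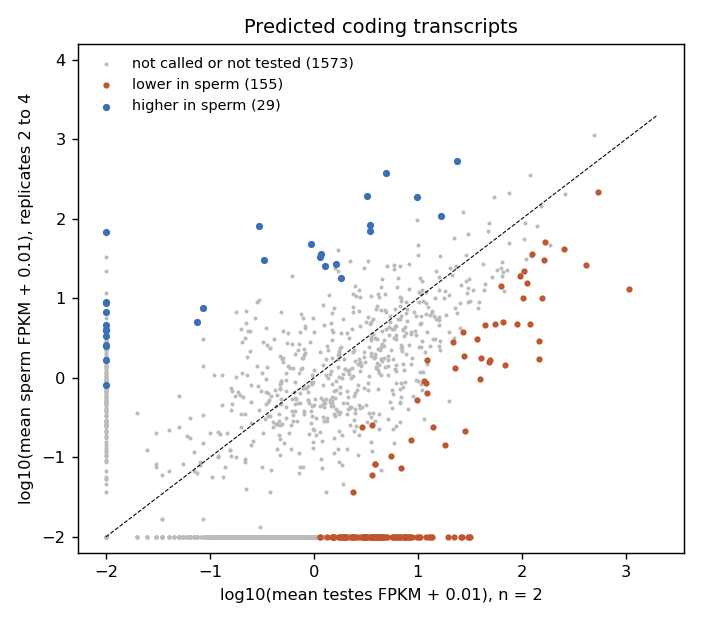
Mean FPKM of the 1757 predicted coding transcripts in sperm replicates 2 to 4 (vertical) and in testes (horizontal), on log10 axes after adding 0.01, with the dashed line of equal values. Blue points are the 29 called higher in sperm and orange the 155 called lower by edgeR; many called points lie on the lower or left edge, where one group is at 0.

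A small number of calls held in nearly every fit. In all 5 edgeR fits that left out 1 sample and in 4 further fits (all 4 sperm samples, library size, no filter and DESeq2), 5 transcripts were called higher each time and 6 lower each time. Without either testes sample, 120 of the lower calls could not be fitted and so could not meet this rule. MTCONS_00017258 and MTCONS_00035206 are among these, and were called in all 10 alternative fits that could be made. Of the higher calls, 12 could not be fitted without sperm replicate 2 and 11 without replicate 4. The 5 and 6 are therefore no measure of how many calls would hold. The fits share most of their samples and so are not independent of each other. Among the transcripts called each time, MTCONS_00017872, MTCONS_00034491, MTCONS_00034497, MTCONS_00054694 and MTCONS_00129459 were chosen for mention after their values were seen.

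The 5 higher ones were MTCONS_00004545, MTCONS_00119620, MTCONS_00144688, MTCONS_00136236 and MTCONS_00017872. MTCONS_00136236 (844 bases) had FPKM of 419, 513, 609 and 502 in sperm and 22.2 and 25 in testes, with an edgeR log2 fold change of 4.19 (SE 0.78) and adjusted p of 6.98e-05. MTCONS_00144688 (569 bases) had FPKM of 433, 446, 327 and 376 in sperm and 4.68 and 5.19 in testes (edgeR log2 fold change 5.99, SE 1.03, adjusted p = 2.00e-05). Its ratio of mean FPKM was 77.6-fold. The testes FPKM of this transcript rest on 7 counts in each testes sample, too few to measure the spread there. MTCONS_00017872 (4514 bases) had FPKM of 205, 141, 303 and 128 in sperm and 10.8 and 8.74 in testes (edgeR log2 fold change 3.92, SE 0.68, adjusted p = 2.16e-05). MTCONS_00119620 (1972 bases) had FPKM of 36.3, 68.6, 113 and 58.7 in sperm and 0.570 and 0 in testes (edgeR log2 fold change 7.71, SE 1.26, adjusted p = 6.71e-06). MTCONS_00004545 had FPKM of 88.4, 61.7, 50.4 and 90.8 in sperm and was at 0 in testes (edgeR adjusted p = 5.54e-07). In each of these the sperm samples, replicate 1 included, lay above both testes samples. MTCONS_00119620 and MTCONS_00004545 entered the fit on sperm alone, so their calls are no further support for a direction.

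Other higher calls at lower counts or with wider spread were MTCONS_00066939, MTCONS_00051907, MTCONS_00021999 and MTCONS_00108289. MTCONS_00066939, only 389 bases long, had FPKM of 722, 271, 214 and 98.7 in sperm and 6.5 and 0 in testes (edgeR adjusted p = 0.00308), and its call was lost without sperm replicate 2 (adjusted p = 0.0745) and without testes replicate 2 (0.182, the highest of its alternative fits, the lowest being 4.27e-07). MTCONS_00051907 was at 0 in sperm replicate 1, with FPKM of 22.6, 54.6 and 31.4 in replicates 2 to 4 and 2.33 and 0 in testes (edgeR adjusted p = 0.0216). With replicate 1 in the fit its adjusted p from edgeR was 0.104, and over the alternative fits it ran from 3.67e-04 to 0.809. MTCONS_00021999 had 3, 23, 8 and 8 counts in sperm and 0 and 1 in testes (edgeR adjusted p = 0.0382), and its call was lost in 7 of 12 alternative fits, among them that with all 4 sperm samples (0.0555) and that with no filter (0.108), with a highest adjusted p of 0.811. MTCONS_00021999 entered the fit on sperm alone, so its call is no further support for a direction. MTCONS_00108289 had FPKM of 24.6, 24.2, 49.9 and 26.4 in sperm and 0.700 and 1.57 in testes (edgeR adjusted p = 0.00801), and a predicted lncRNA of the same length had the same counts. The call of MTCONS_00108289 was lost without sperm replicate 2 (adjusted p = 0.0536), testes replicate 1 (0.146) or testes replicate 2 (0.0615).

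**Figure D4:**
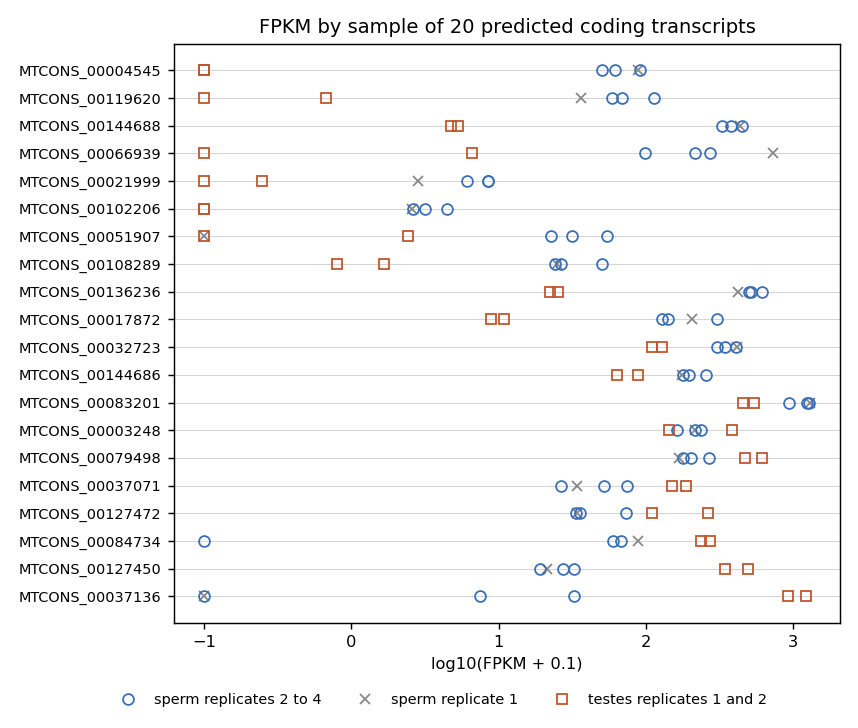
FPKM in every sample, as log10(FPKM + 0.1), of 20 predicted coding transcripts: the 8 highest in sperm, the 8 highest in testes, 8 higher calls and MTCONS_00017872, some of which coincide. The 8 higher calls are the largest among those with 20 or more summed counts and groups that did not overlap. Circles are sperm replicates 2 to 4, crosses sperm replicate 1 and squares testes, and a value of -1 is a transcript at 0; sperm and testes marks stand far apart at the top and bottom of the plot, while MTCONS_00003248 has sperm values between those of testes.

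The 6 lower calls that held were MTCONS_00037136, MTCONS_00034497, MTCONS_00034491, MTCONS_00127450, MTCONS_00129459 and MTCONS_00054694. MTCONS_00037136 had 2000.0 and 2401 counts in testes and 0, 6, 9 and 0 in sperm, with an edgeR log2 fold change of -6.88 (SE 0.78) and adjusted p of 4.18e-10. MTCONS_00034497 had 1515 and 928 counts in testes and 16.5 in sperm replicate 2, with 0 in the other sperm samples (edgeR log2 fold change -6.14, SE 0.88). MTCONS_00034491 had 1505 and 504 counts in testes and 8, 14.7, 0 and 4.28 in sperm (edgeR log2 fold change -5.52, SE 0.86). These are transcripts that testes held at over 500 counts and that sperm held at a few counts or none. MTCONS_00127450 had 2836 and 3701 counts in testes and 26, 82.9, 20 and 47.2 in sperm, and so was low but present in every sperm sample (edgeR log2 fold change -4.31, SE 0.59). MTCONS_00129459 had 1393 and 1325 counts in testes and 0, 26.1, 9 and 23 in sperm (edgeR log2 fold change -4.29, SE 0.69). MTCONS_00054694 had a log2 fold change of -4.28 (SE 0.88) in edgeR, and LTCONS_00063790, with the same counts, shares it. Under limma on log2(FPKM + 0.1) the calls of MTCONS_00037136, MTCONS_00034497, MTCONS_00034491 and MTCONS_00054694 were lost, with adjusted p of 0.0963, 0.0511, 0.0742 and 0.156, the highest of their alternative fits, and the lowest ran from 1.02e-22 to 5.15e-05.

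The lower calls with the largest fitted change were all at 0 in sperm. Besides the 5 confined transcripts named above they were MTCONS_00052372 with 141 and 24.8 counts in testes, MTCONS_00073658 with 99.0 and 43.0, and MTCONS_00025799 with 78.9 and 45.8. Sperm was at least 23.1-fold, 20.1-fold and 17.7-fold lower, and without sperm replicate 2 at least 12.7-fold, 11.1-fold and 9.76-fold. Against testes replicate 2 alone the bound of MTCONS_00052372 was 7.47-fold and that of MTCONS_00073658 was 13.0-fold. Without sperm replicate 2 the calls of MTCONS_00052372, MTCONS_00073658 and MTCONS_00025799 were lost, with edgeR adjusted p of 0.0811, 0.0771 and 0.0809. These transcripts also entered the fit on testes alone, so their calls are no further support. MXLOC_016245, the locus of MTCONS_00025799, was present in sperm through MTCONS_00025803, with sums of 25, 148, 4 and 48 counts against 485 and 213 in testes, and the sums did not pass the edgeR test (adjusted p = 0.568) at a log2 fold change of -0.63 with an SE of 0.74.

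Where a gene identifier held several models, sperm and testes sometimes differed in which model carried the counts. Of 37 such identifiers with at least 20 counts in each group, the leading model was the same in 33 and another in 4, namely MXLOC_021686, MXLOC_064263, MXLOC_074855 and MXLOC_075602. The 33 include MXLOC_023830, whose 2 models had equal counts in every sample, so that it has no leading model. The 4 loci with another leading model were singled out after their values were seen. At MXLOC_021686, MXLOC_064263 and MXLOC_075602, sperm replicates 2 to 4 summed to only 36.5, 21.0 and 20.6 counts. The leading sperm model held 54.8%, 52.4% and 51.1% of these, and at MXLOC_021686 and MXLOC_064263 it was at 0 in sperm replicate 2. At MXLOC_074855 the sum was 341 counts and the share 81.8%. How an estimate divides fragments between overlapping models limits all of these comparisons, and no read-level check was made.

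MXLOC_002821 is the locus of MTCONS_00004545, the strongest sperm-only transcript. Its longer model MTCONS_00004544 (4463 bases) had 35.0, 199, 95.7 and 92.2 counts in sperm and 123 and 119.6 in testes. The shorter model, MTCONS_00004545 (2064 bases), was 68.5%, 40%, 28% and 50.4% of the locus in sperm replicates 1 to 4 and 0% in testes. Summed over its models, the locus had 111, 332, 133 and 186 counts in sperm and 126 and 129 in testes. Its log2 fold change was then 2.63 (SE 0.68, edgeR adjusted p = 0.00499), so the locus itself was not absent from testes.

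At MXLOC_074855 the sperm samples were led by MTCONS_00119620, with 73.9%, 85.0%, 100% and 61.0% of the locus, and testes by MTCONS_00119621 (1868 bases), with 68.3% and 76.5%. MTCONS_00119621 was at 0 in sperm replicates 2 and 3. The summed locus was higher in sperm (log2 fold change 2.66, SE 0.78, edgeR adjusted p = 0.0164). At MXLOC_021686, testes were led by MTCONS_00034497 (92.9% and 87.2%), which sperm replicate 2 alone listed among the sperm samples, while MTCONS_00034498 had 14 counts in sperm replicate 3 and 6 in replicate 4. At MXLOC_023817, MTCONS_00037955 was confined to testes while MTCONS_00037956 was listed only in sperm, at 7 and 12 counts. Its sums were 0, 7, 0 and 12 in sperm and 179 and 62 in testes, and their difference did not pass the test (log2 fold change -2.18, SE 1.13, edgeR adjusted p = 0.158). MXLOC_079805 held MTCONS_00127450, which was in every sample, and MTCONS_00127451, which was confined to testes. The latter made up 4.64% and 2.30% of the locus there, and the whole locus had between 20 and 82.9 counts in the sperm samples.

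**Figure D5:**
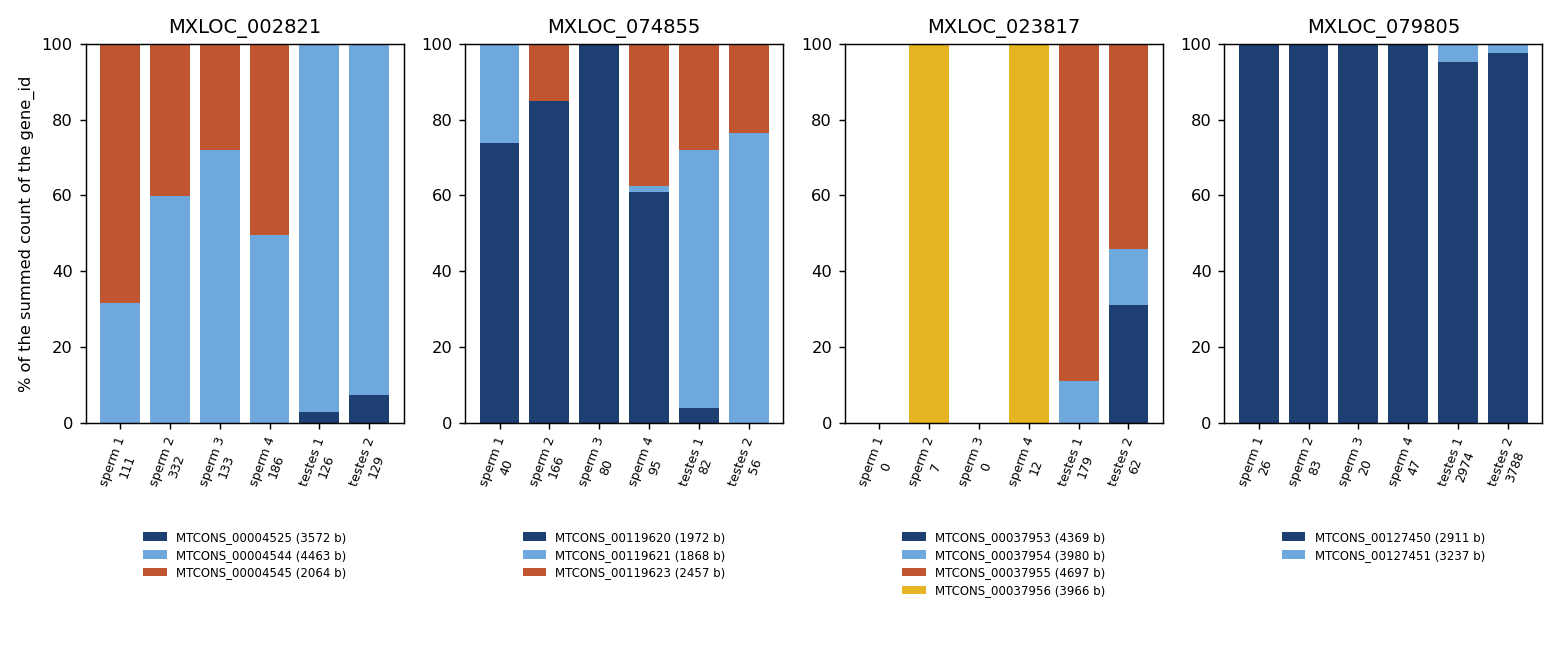
Share of the summed estimated count of 4 gene identifiers that each of their predicted coding transcripts held, by sample, with the summed count under each bar. In MXLOC_002821 MTCONS_00004545 held 28% to 68.5% in sperm and 0% in testes, and in MXLOC_074855 MTCONS_00119620 held 61.0% to 100% in sperm and 3.85% and 0% in testes; empty columns are samples with a sum of 0.

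The 3 gene identifiers with the most models were MXLOC_075602 (8), MXLOC_047245 (6) and MXLOC_072871 (5). MXLOC_075602 had sums of 9.5, 18.4, 0 and 2.13 counts in sperm and 81.6 and 57.2 in testes (edgeR adjusted p = 0.321). Its 8 models were spread over the samples: MTCONS_00120901 held most of the testes counts (52.8 and 35.5) and was at 0 in sperm, MTCONS_00120910 held 9.34 of the counts in sperm replicate 1, and MTCONS_00120887 held 57.0% of those in replicate 2. MXLOC_047245 was at 0 in all sperm samples, with 28.0 and 17.0 counts in testes. In MXLOC_072871 the sperm samples disagreed on the model: replicates 1 and 3 had counts in MTCONS_00116536 and MTCONS_00116537 only, and replicates 2 and 4 in MTCONS_00116538, shared in replicate 4 with MTCONS_00116539. These models are 3395 to 3404 bases long, and over the locus the sperm sums were 22.3, 47.6, 10.6 and 28.7 against 73.6 and 33.1 in testes (edgeR adjusted p = 0.470).

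The locus of the longest models, MXLOC_050648, rested on a single library. Its 3 models summed to 788 counts in testes replicate 1, 22.6 in testes replicate 2 and 1.10 to 2.19 in the sperm samples. MTCONS_00081219 (70394 bases) held 96.8% of the sum in testes replicate 1 and 24.4% in testes replicate 2.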

How the data were processed

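RNA was measured in 4 sperm and 2 testes samples, grouped and numbered by their titles. The authors removed adaptors and poor reads and aligned the rest. Their methods name SOAPaligner/SOAP2, and the submitters' processing notes name HISAT and the build mm10, in each case without a version. The counting program is not given in the sources used here. For each transcript the deposited tables hold an expected count, an estimated number of fragments that is not scaled for depth. They also hold the length in bases and an FPKM value that the authors computed from length and depth. The members and lists were chosen with earlier results of these data known.

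Depth is the summed estimated count per sample, so 3 counts correspond to between 1.05 and 8.19 ppm. Wilson 95% intervals and floors cover counting error only, since PCR copies of a molecule are not independent. No batch is labelled, so batches could not be compared. Replicates were not merged, because their counts differed by more than sampling noise (chi-square over degrees of freedom 5.97 to 18.8 over these transcripts). Samples are pools, and p-values measure the spread between these samples.

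Measures with 1 value per sample were tested by exact two-sided permutation of the group means, with Benjamini-Hochberg adjustment over 5 tests. The two-sided p doubles the smaller one-sided p, so that with 3 against 2 samples it cannot go below 0.2. Estimated counts were rounded to whole numbers and tested with edgeR 4.0.16 (glmQLFit and glmQLFTest, TMM factors) in R 4.3.3, all transcript classes in one fit, with Benjamini-Hochberg adjustment over all transcripts tested. Transcripts that reached an FPKM of 1 in at least 2 of the 5 samples entered the fit, and calls needed an adjusted p below 0.05 and a fold change above 2. Standard errors were derived from the F statistic. The scripts were tested on simulated counts. DESeq2 1.42.0, limma 3.58.1 on log2(FPKM + 1) and log2(FPKM + 0.1), other filters and scalings, all 4 sperm samples, sums by gene identifier, thinning (20 draws) and leaving out each sample were alternatives. Python 3.11.15, scipy 1.17.1 and pandas 2.3.3 were used.

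Transcripts were named by rule: the 8 highest by mean FPKM in sperm replicates 2 to 4 among those listed in all of these, the 8 highest in testes, up to 8 higher and 8 lower calls with the largest log2 fold change among those with 20 or more summed counts and groups that did not overlap, the 5 most abundant confined to testes, the 5 most abundant only in sperm, the models of the 3 gene identifiers with the most models, and the longest and shortest. Others are said to be chosen after their values were seen, and so were the doubles. Leaving out transcripts with a double, leaving out MTCONS_00083201, and leaving out each sample from the fold bounds, were alternatives chosen after seeing the data. Sequences and positions of these models were not analysed here.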

Additional observations from a re-analysis of the deposited data

Results flagged for a closer look

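In 38 groups of 4 sperm values, 1 for each per-sample measure and each named transcript with counts in sperm, 10 had a sample whose gap to the nearest other value was a larger part of the whole range than Dixon's 95% critical value. Chance flags about 1 in 20 groups of continuous values, a rate that does not apply to 7 of the 10, which are at 0 in the other 3 samples. For MTCONS_00083201 the low sample was sperm replicate 3 (0.843 of the range), for MTCONS_00127472 the high sample was replicate 2 (0.945), and for MTCONS_00108289 the high sample was replicate 3 (0.913). The value was 1.00 for MTCONS_00120886 and MTCONS_00120910 (sperm replicate 1), MTCONS_00120887, MTCONS_00120911 and MTCONS_00149316 (replicate 2), and MTCONS_00120897 and MTCONS_00116539 (replicate 4), each of which was listed in that sperm sample alone among the 4. Without the sample in question the range of the rest was 0.

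Sperm replicate 1, which entered the definition of confined transcripts and some alternative fits but not the main test, listed 13 predicted coding transcripts that no other sample listed, and 8 of them had more than 3 counts. The highest were MTCONS_00041672 with 20.8 counts, and MTCONS_00127386 and MTCONS_00102441 with 10.0 each.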

How the results depend on the processing

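No difference in listing, share or length changed its direction under the alternatives run. The difference in transcripts listed (-823) was -353 at FPKM of at least 1, -524 at 3 or more counts and -349 after thinning. The difference in share of counts was -0.477 percentage points by FPKM, -0.805 without MTCONS_00083201 and -0.908 to -0.436 leaving out 1 sample, and that in share of coding counts was -4.31 to -0.515. The difference in median length was 119.6 bases at 3 or more counts and 19.1 after thinning. For the 10 highest it was 11.3 points by FPKM and 1.59 to 10.2 leaving out 1 sample.

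Calls higher (29) and lower (155) were 17 and 166 with all 4 sperm samples, 14 and 30 with no filter, 32 and 54 by library size, 28 and 69 by DESeq2, 19 and 163 by limma on log2(FPKM + 0.1), and 10 and 24 at adjusted p below 0.01. Leaving out 1 sample gave 7 to 47 higher and 15 to 88 lower. Without a testes sample, 120 of the lower calls failed the filter and could not be fitted. Without transcripts that have a double, 22 and 142 remained. The cause of the other changes was not tested.

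With the replicate number as a block, over all 4 sperm samples, 12 were called higher and 29 lower. Labels do not say that numbers pair sperm with testes, and deviations of same-numbered samples correlated at -0.00493 and -0.0663 across 26621 transcripts and at 0.0989 and 0.0607 across the 685 predicted coding transcripts among them, so the block was not used.

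Confined transcripts (340) were 165 at FPKM of at least 1 and 132 after thinning, and those only in sperm (20) were 43 and 42, and 33 with all 4 sperm samples. Leaving out 1 sample gave 120 to 255 kept, 346 to 684 confined and 3 to 37 only in sperm. The numbers kept and confined cannot fall in this way, since a condition is dropped.

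Uncalled log2 fold changes that turned sign were those of MTCONS_00003248 (-0.53, and -1.28 to 0.10 leaving out 1 sample), MTCONS_00120887 (-0.22, and -1.18 to 0.58) and MTCONS_00116538 (0.68, and -0.24 to 1.45). The last was -0.81 with the block and -0.01 and -0.91 under limma with 1 and 0.1 added.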

Other observations

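Transcripts with neighbouring identifiers were among the highest in sperm. The 9 gene identifiers from MXLOC_091186 to MXLOC_091203 that hold predicted coding transcripts have 10 of them, MTCONS_00144686 and MTCONS_00144688 included, a group chosen after its values were seen. Of the counts of the class they held 6.24%, 7.06%, 5.44% and 5.62% in sperm, in order of replicate, against 2.78% and 2.76% in testes. All 4 sperm values lay above both testes values. Positions were not analysed here.

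MTCONS_00121313, chosen after its values were seen, was called higher although its sperm values were uneven, at 0.03, 695.42, 5.37 and 290.75 counts for replicates 1 to 4, against 32.27 and 60.55 in testes, and an edgeR adjusted p of 4.72e-04. LTCONS_00141541 had the same counts.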
